A study of Mus musculus with 12 samples.

Results

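Cluster 12 is the radial glial cell (RGC) cluster that the authors called non-mitotic. Its members were all nuclei that the authors' clustering placed in it, 2140 of the 50550 nuclei of the 11 embryos used here (4.23%), or 18.1% of the 11848 nuclei of the 5 RGC clusters (Clusters 2, 3, 12, 20 and 21). The study asked how prenatal alcohol exposure alters the cell types of the developing mouse cortex. Single nucleus RNA sequencing (snRNAseq) counted unique molecular identifiers (UMIs), each standing for 1 captured RNA molecule, in nuclei of embryonic day 14 cortex. C57BL/6J dams received 6 once-daily intraperitoneal injections from embryonic day 8.5 of saline alone or with EtOH, at 25% (v/v) and a dose of 2.5 g/kg. The saline group held 5 embryos, S1-1 and S1-2 from dam S1 and S2-1, S2-2 and S2-4 from dam S2. The EtOH group held 6, E1-1 and E1-2 from dam E1 and E2-1 to E2-4 from dam E2. All groups shared the strain, the injection schedule and the tissue, and there were 2 dams per treatment, so littermates were not independent of each other. The labels put the embryos of dams S1 and E1 in batch 1 and those of dams S2 and E2 in batch 2, and per the study's methods the libraries were made in 2 batches.

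Radial glia are the stem cells of the embryonic cortex. They line the ventricle, keep a long process to the brain surface, and either renew themselves or give rise to intermediate progenitor cells (IPCs) and neurons. While they cycle, their nuclei move between the ventricle, where they divide, and deeper positions, where they replicate DNA. Notch signalling, acting through the transcription factors Hes1 and Hes5, holds them in the progenitor state, and Hmga2, a chromatin protein of early stem cells, is lost from neural stem cells as development goes on. A cluster of radial glia with few transcripts of mitosis genes can therefore hold cells that are between divisions as well as cells that no longer divide.

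Cluster 12 was found in every embryo. The saline embryos contributed 322 nuclei (S1-1), 219 (S1-2), 260 (S2-1), 230 (S2-2) and 302 (S2-4), while each EtOH embryo gave between 92 and 166 nuclei with a median of 148.5. As a percentage of all nuclei of an embryo, the cluster made up 4.45% ± 0.416 (SD) in the 5 saline embryos and 4.08% ± 0.651 (SD) in the 6 EtOH embryos (two-sided exact permutation test over the 462 splits of the embryos, p = 0.279, and p = 0.290 over the 210 splits within batches). As a percentage of RGC nuclei it was 17.5% ± 1.76 and 19.8% ± 2.84 (exact permutation p = 0.145, within batches 0.110). There were 0.531 ± 0.206 nuclei of Cluster 12 per nucleus of Cluster 2, the largest RGC cluster, in saline and 0.529 ± 0.156 in EtOH embryos (exact permutation p = 0.985). The groups thus overlapped in all 3 measures, and with all 11 embryos no difference in the size of the cluster was detectable. Single embryos bore on this, as the share of all nuclei was lower in EtOH by 0.590 percentage points without E1-1 and the share of RGC nuclei higher by 3.30 without E2-2 (exact permutation p = 0.0238 for each). The study had removed 1 saline sample because its cells were spread over the clusters unlike those of the others. The saline spread in these 3 measures may therefore be too narrow.

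Depth per nucleus differed between the treatments, which bears on every comparison of them. The median Cluster 12 nucleus held 6410.5 UMIs in S1-1, 6054 in S1-2, 5799 in S2-1, 5839.5 in S2-2 and 4400 in S2-4, against 2768.5 to 4799 with a median of 4196.75 in the EtOH embryos. Saline embryo S2-4 thus lay within the range of the EtOH embryos. The group means were 5701 ± 766 and 4103 ± 716 UMIs (exact permutation p = 0.00866, within batches 0.0190), and those of the median number of genes per nucleus were 2653 ± 211 and 2169 ± 278 (p = 0.0108, within batches 0.0238). In batch 1 the mean of the embryos' median UMIs was 6232 in saline and 3401 in EtOH, and in batch 2 it was 5346 and 4454. The median UMIs of Cluster 12 over those of Cluster 2 came to 0.660 in saline and 0.681 in EtOH embryos (exact permutation p = 0.160), and over those of all nuclei to 0.699 and 0.671 (exact permutation p = 0.0281, within batches 0.0333). The latter p rose to 0.0571 without S1-1 and to 0.0556 without E1-2, E2-1, E2-3 or E2-4. The summed UMIs of the cluster lay between 398708 and 2456486 per embryo, and all values below per embryo rest on these sums. Of the 314 cell barcodes that occurred in 2 or more libraries, 0 were in Cluster 12 in more than 1 library.

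The label was checked against the 3 marker genes and against genes of the cell cycle. Levels are given as CPM, the count of a gene scaled to equal totals and read as counts per 1000000 UMIs, of the summed nuclei of an embryo, as mean ± SD over embryos of both treatments. Embryos with fewer than 10 nuclei in a cluster were left out of its mean. That left 9 embryos for Cluster 20, 10 for Clusters 21, 23 and 24, 7 for Cluster 25 and all 11 for the others. Since the authors built the clusters from these same transcripts, comparisons between clusters are descriptions and were not tested. Gm29260, a long intergenic noncoding RNA of unknown function at chr1:41781808-41939560 on the plus strand (mm10), stood at 6826 ± 1120 CPM in Cluster 12. It was next highest in Cluster 2 with 3029 ± 852 CPM and reached 125 ± 47.1 CPM in Cluster 1, the callosal projection neurons. Its level in Cluster 12 ranged from 4614 to 8683 CPM among saline embryos and from 6262.7 to 8128 CPM among EtOH embryos, and was above Cluster 2 in 11 of 11 embryos. Hmga2 (chr10:120361275-120476469, minus strand) was also highest in Cluster 12, with 473 ± 109 CPM against 379 CPM in Cluster 3 and 313 ± 130 CPM in Cluster 2. Hes1 (chr16:30064384-30067796, plus strand) stood at 69.4 ± 16.4 CPM, below the 99.4 ± 26.8 CPM of Cluster 2 in every embryo and far above the 4.74 ± 1.93 CPM of Cluster 6, the non-mitotic IPCs. Cluster 17, the mitotic IPCs, lay nearer, with 2995 ± 682 CPM of Gm29260, 148 ± 27.9 CPM of Hmga2 and 26.3 ± 14.3 CPM of Hes1. The means of all 3 markers were thus higher in Cluster 12 than in both IPC clusters, while against Cluster 2 Gm29260 was higher in all and Hmga2 in 10 of 11 embryos.

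**Figure D1:**
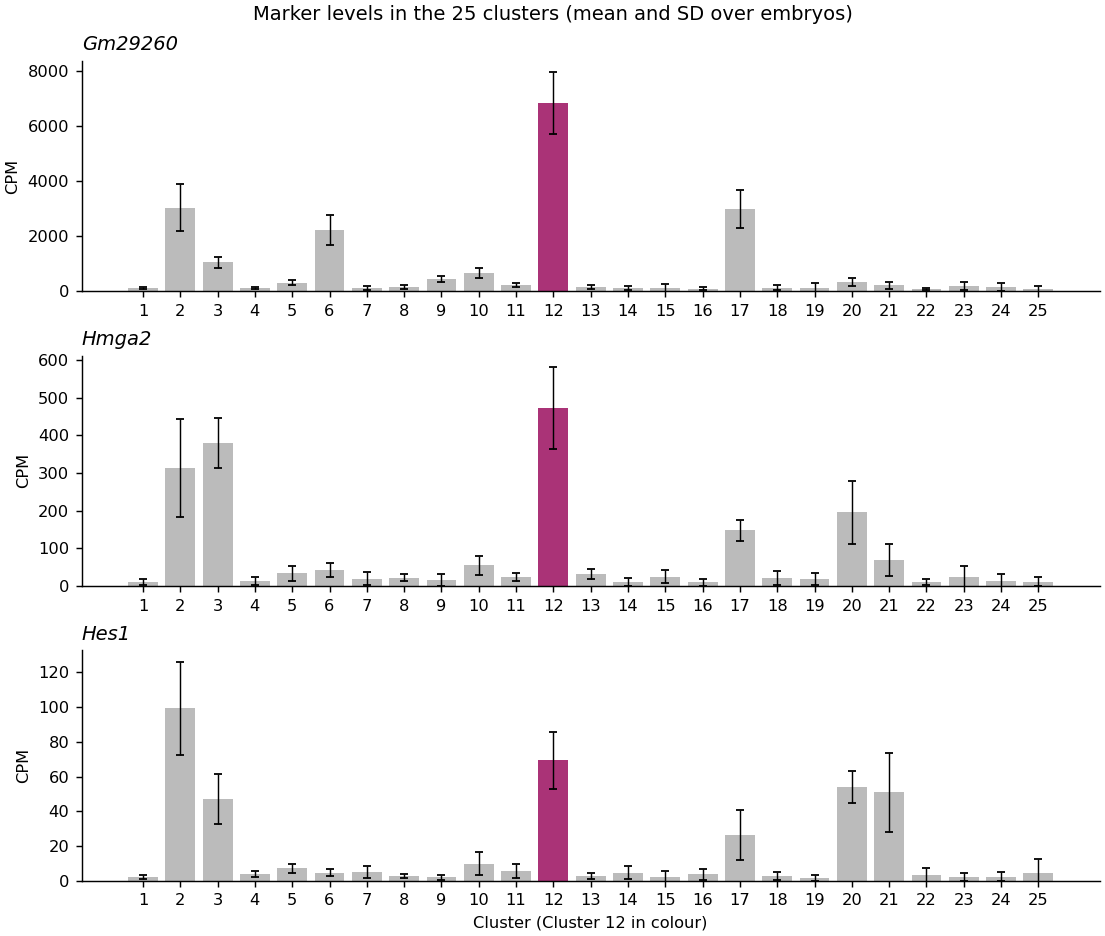
Mean level (CPM, y axis, from 0) of Gm29260, Hmga2 and Hes1 in each of the 25 clusters (x axis), with Cluster 12 in colour and bars for the SD over embryos. Gm29260 (6826 CPM) and Hmga2 (473 CPM) were highest in Cluster 12, while Hes1 (69.4 CPM) came after Cluster 2 (99.4 CPM).

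Cluster 12 was low in genes of mitosis and not in genes of DNA replication. The study based the name non-mitotic on low proliferation markers, among them Top2a and Mki67, so the mitosis list restates that naming. The 30 genes of a mitosis list, which included Top2a (untangles chromosomes), Mki67 (coats mitotic chromosomes), kinesins and mitotic kinases, summed to 1099 ± 197 CPM in Cluster 12 against 6347 ± 777 CPM in Cluster 2 and 423 ± 119 CPM in Cluster 6. All 30 members were below Cluster 2 in 11 of 11 embryos, as were 8.23% of the 7411 genes with at least 20 CPM in either cluster. Top2a stood at 94.7 ± 28.0 CPM against 731 ± 130 in Cluster 2 and 28.4 ± 16.6 in Cluster 6, and Mki67 at 69.9 ± 18.99 CPM against 281 ± 40.4 and 32.7 ± 12.3. The cluster thus lay between the dividing RGCs and the non-mitotic IPCs. The replication list, of which 29 genes were in the files, summed to 3206 ± 347 CPM, close to the 3488 ± 270 CPM of Cluster 2 and 3.16 times the 1013 ± 159 CPM of Cluster 6. Of these 29 genes, 11 were highest of all 25 clusters in Cluster 12, as were 22.1% of all genes tested for EtOH. They included 6 subunits of the MCM helicase, which is loaded onto DNA in G1 phase and unwinds it in S phase, among them Mcm6 with 121 ± 10.6 CPM (67.5 ± 9.76 in Cluster 2) and Mcm3 with 44.05 ± 11.7 CPM (26.6 ± 5.91). Hells, a chromatin remodeller of dividing cells, stood at 253 ± 45.3 CPM (199 ± 33.7 in Cluster 2). Ccnd2 and Cdk6, a cyclin and a kinase of G1 phase, reached 378 ± 34.3 and 434 ± 31.4 CPM, each above Cluster 2 in 11 of 11 embryos. By these genes the nuclei were low in mitosis transcripts, and the data do not show that they had left the cell cycle.

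**Figure D2:**
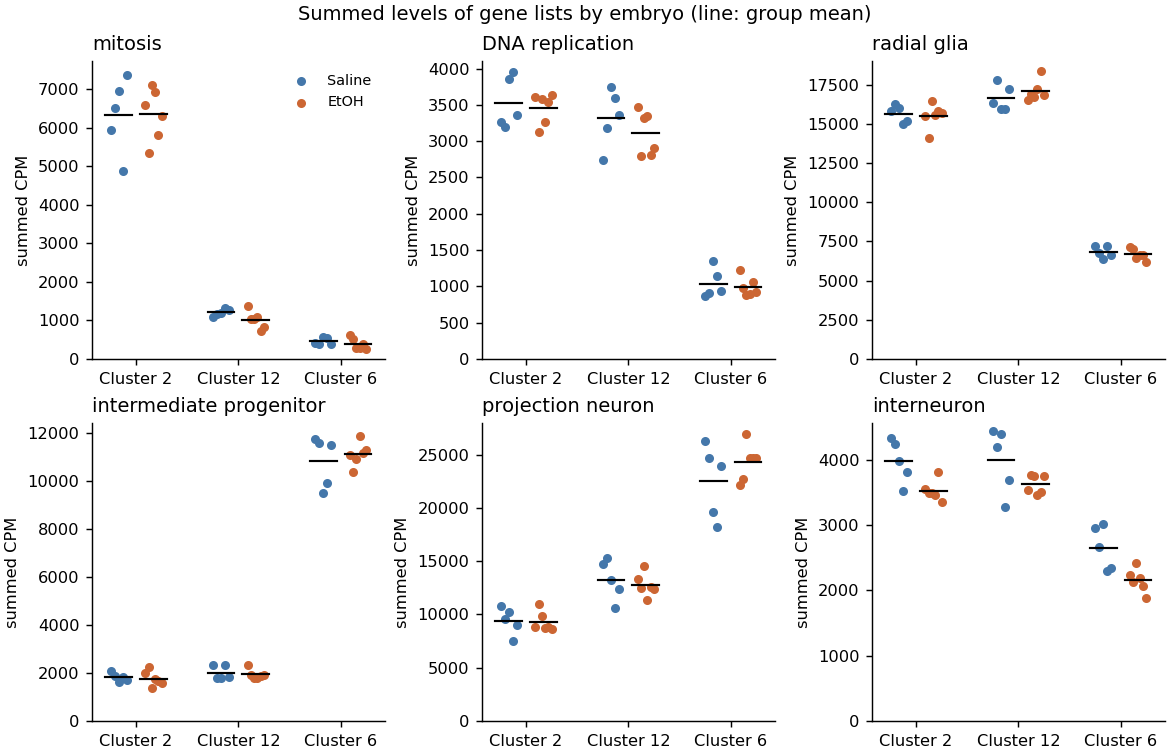
Summed level (CPM, y axes from 0) of gene lists in Clusters 2, 12 and 6 (x axis), with 1 point per embryo, coloured by treatment, and a line at each group mean. The mitosis list was low in Cluster 12 (1099 CPM) beside Cluster 2 (6347 CPM), while the replication list was at 3206 CPM beside 3488 CPM.

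The summed level of radial glia genes was highest in Cluster 12, while single genes varied in rank. The 29 genes of the radial glia list came to 16898 ± 743 CPM, ahead of Cluster 2 with 15577 ± 649 CPM and of all other clusters, and at 6747 ± 356 CPM in Cluster 6. Highest of 25 in Cluster 12 were 8 of the 29, near that share of all genes. They included Creb5 with 2819 ± 164 CPM, Cdon with 2202 ± 153 CPM, Prdm16, a chromatin regulator of neural stem cells, with 1277 ± 116 CPM, and Pax6, the transcription factor that defines dorsal radial glia, with 420 ± 47.4 CPM. Sox2 (43.0 ± 9.23 CPM) ranked 9 of 25 and Sox9 (45.6 ± 13.4 CPM) 3 of 25, and Hes1 was below Cluster 2, as given above. Of the 12 early, stage-dependent genes, such as Hmga2 and Igf2bp1, the sum of 1991 ± 165 CPM was again the highest of 25, while the 12 late, gliogenic genes such as Nfia and Zbtb20 ranked 11 of 25 with 10574 ± 751 CPM. The early sum was 1851 ± 157 CPM in Cluster 20, and its rank rests on the marker Hmga2, with 473 CPM in Cluster 12 and 195 CPM in Cluster 20. Of the 12 early genes, 2 were highest of 25 in Cluster 12, as were 22.1% of all tested genes. Egfr, a growth factor receptor of later progenitors, gave 102 UMIs in the whole cluster, with 10.4 ± 16.5 CPM. These UMIs were 8, 2, 11, 3 and 5 in S1-1, S1-2, S2-1, S2-2 and S2-4, and 0, 0, 17, 45, 8 and 3 in E1-1, E1-2 and E2-1 to E2-4, so that embryo E2-2 alone held 45 of the 102. The gene was not tested for EtOH because its counts were too low.

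Among signalling pathways, the lists of the Hedgehog, Notch and BMP pathways each had their highest sum of 25 clusters in Cluster 12. Of their single genes, 6 of 13, 2 of 28 and 7 of 23 were highest there, beside 22.1% of all genes tested for EtOH. The 13 genes of the Hedgehog list summed to 5389 ± 425 CPM, with 4130 ± 252 CPM in Cluster 2. Most of that sum was Cdon and Gli3, and the radial glia list holds Cdon and Gas1 too. The co-receptors Cdon, Boc (527 ± 56.7 CPM) and Gas1 (69.99 ± 20.9), the transducer Smo (146 ± 28.8) and the transcription factors Gli3 (1824 ± 213), which acts mainly as a repressor in dorsal cortex, and Gli2 (451 ± 65.5) were each highest in Cluster 12. The ligand Shh gave 4 UMIs in all, Gli1, a target that reports active signalling, 28 UMIs, and the receptor and target Ptch1 ranked 18 of 25 with 41.0 ± 15.3 CPM.

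The Notch list summed to 4060 ± 171 CPM for its 28 genes against 3511 ± 114 CPM in Cluster 2. Maml2, a coactivator of the Notch transcription complex, reached 1290 ± 72.1 CPM and was highest of 25. The receptors Notch1 (168 ± 29.2 CPM), Notch2 (310 ± 64.8) and Notch3 (161 ± 22.6) each ranked 2 of 25, whereas the ligand Dll1 (24.5 ± 7.72 CPM) was above Cluster 2 (12.6 ± 2.93) in 11 of 11 embryos and below Cluster 6 (48.1 ± 15.004) in all 11. The target Hes5 stood at 41.6 ± 9.23 CPM beside 40.6 ± 8.20 in Cluster 2, above it in 7 of 11 embryos, where Hes1 was above it in 0. In the BMP list, whose sum was 2798 ± 120 CPM, the receptor Bmpr1b (712 ± 103 CPM, 431 ± 127 in Cluster 2) and Id4, an inhibitor of neurogenic transcription factors (240 ± 35.7, 202 ± 23.3 in Cluster 2), were highest of 25.

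The Wnt list ranked 4 of 25, with 4930 ± 222 CPM for the 69 genes found beside 5203 ± 238 CPM in Cluster 2. The repressor Tcf7l1 (639 ± 48.3 CPM), the secreted inhibitor Sfrp1 (236 ± 31.3), the ligand Wnt7a (84.9 ± 16.5) and the receptors Fzd2 (47.6 ± 8.49) and Fzd8 (36.8 ± 8.85) were highest in Cluster 12, while Tcf7l2, an effector of the pathway, stood at 274 ± 43.8 CPM and was highest in Cluster 20 with 1057 CPM. Wnt1, Wnt9b, Wnt10a, Wnt11, Wnt16, Dkk1 and Rspo4 gave 0 UMIs in Cluster 12.

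Few genes were highest in Cluster 12 by a wide margin. Of 7128 genes with at least 20 CPM, 1599 were highest of 25 in Cluster 12, 33 by at least 1.5 times and 6 by at least 2 times the next cluster. The largest ratio was that of Tshr, the receptor of thyroid-stimulating hormone, with 220 ± 65.9 CPM against 67.0 CPM in Cluster 17, the mitotic IPCs (3.28 times). It was followed by Gna14, a G protein subunit, with 75.5 ± 17.2 CPM (3.01 times), Thsd4, an extracellular matrix protein, with 923 ± 140 CPM (2.46 times), Gm29260 (2.25 times), the antisense RNA Gm44026 with 21.3 ± 6.93 CPM (2.17 times) and Lpar1, a receptor of lysophosphatidic acid, with 390 ± 43.4 CPM (2.11 times). Sema5a, a guidance molecule, with 1999 ± 208 CPM, Lrp4, a co-receptor that modulates Wnt and BMP signals, with 376 ± 56.8 CPM, the antisense RNA Junos and Dctd, an enzyme of nucleotide synthesis, were at 1.98, 1.80, 1.79 and 1.78 times. All 10 were above Cluster 2 in 11 of 11 embryos, which largely follows from how they were picked. Of the 7411 genes with at least 20 CPM in either cluster, 8.35% were so. In whole profiles Cluster 12 was most like Cluster 2 (Pearson r = 0.967 over 9250 genes in log2 CPM), then Cluster 3 (0.952), Cluster 17 (0.932), Cluster 20 (0.911) and Cluster 6 (0.903). These are correlations across genes, which are not independent, in clusters from the same libraries.

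Levels of the lists of other cell types differed widely. The IPC list summed to 1965 ± 232 CPM against 10982 ± 759 CPM in Cluster 6, although Eomes, the transcription factor that defines IPCs, stood at 67.4 ± 25.5 CPM, above the 22.4 ± 5.71 CPM of Cluster 2 in 11 of 11 embryos, and Neurog2, which starts neurogenesis, at 69.3 ± 9.18 CPM against 29.1 ± 3.19. The projection neuron list summed to 12999 ± 1438 CPM, beside 9368 ± 1034 in Cluster 2 and 32048 ± 2858 in Cluster 1. The interneuron list came to 3799 ± 385 CPM, beside 3736 ± 332 in Cluster 2 and 583 ± 350 in Cluster 1. Most of that sum was Sox6 (3007 ± 246 CPM), a transcription factor that the radial glia list holds too, while Gad1 and Gad2, the enzymes that make GABA, stood at 19.9 ± 10.3 and 67.3 ± 42.8 CPM and each ranked 13 of 25. The sum of the synapse and neurite list was lower than in any other cluster (20421 ± 3269 CPM), while 17 of its 30 genes had a higher mean than in Cluster 2. Lists of microglia, endothelium, meninges, oligodendrocytes and astrocytes, and erythrocytes summed to 62.3 ± 16.99, 53.02 ± 13.1, 29.5 ± 12.96, 90.4 ± 16.2 and 74.4 ± 52.3 CPM, with C1qa, Aif1 and Twist1 at 0. In the same order these sums ranked 3, 3, 11, 15 and 4 of 25. In Cluster 2 they came to 60.3, 45.4, 26.6, 89.6 and 67.7 CPM.

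To describe how the nuclei differed from each other, each nucleus was thinned to 2000 UMIs, which left out 21 saline and 19 EtOH nuclei of Cluster 12 with fewer. At that depth 98.1% ± 2.41 (SD over 11 embryos) of the nuclei held a UMI of Gm29260, against 73.5% in Cluster 2, 66.6% in Cluster 6 and 16.1% in Cluster 1, whose projection neurons are taken here as the background. Hmga2 was seen in 47.5% ± 8.32, against 34.4% in Cluster 2 and 1.75% in Cluster 1. Tshr was seen in 28.0% ± 7.27, against 8.16% and 1.16%, and Hes1 in 11.4% ± 3.18, against a higher 18.5% in Cluster 2 and 0.33% in Cluster 1. Without thinning these shares were 99.3%, 65.9%, 41.3% and 25.1% in Cluster 12, so a nucleus without a Hes1 UMI cannot be called Hes1-negative. Nuclei with a UMI of Top2a made up 11.8% ± 3.69 in Cluster 12 and 58.8% ± 5.85 in Cluster 2, and those with Mki67 11.5% ± 3.51 and 36.5%, beside 2.08% and 4.49% in Cluster 1.

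Few Cluster 12 nuclei held many UMIs of mitosis genes. Per 2000 UMIs a nucleus held 1.99 UMIs of the mitosis list on average, with 26.7% of nuclei at 3 or more and 2.57% at 10 or more, whereas in Cluster 2 the mean was 12.1 UMIs and 55.3% of nuclei held 10 or more. At least 1 UMI of the list was seen in 69.5% of Cluster 12 nuclei, but also in 44.4% of those of Cluster 6 and 34.2% of those of Cluster 1, so a nucleus with 1 such UMI cannot be called dividing. The replication list gave 6.20 UMIs per nucleus, 7.51 in Cluster 2 and 2.01 in Cluster 6, and 24.9% of Cluster 12 nuclei held 10 or more. Nuclei with an Eomes UMI made up 9.27% ± 3.10 in Cluster 12, 2.81% in Cluster 2 and 53.6% in Cluster 6, beside 2.00% in Cluster 1. The 186 nuclei with an Eomes UMI held more UMIs of the IPC list (Eomes left out) than the other 1914, at 5.84 and 3.24 per 2000, and more of the projection neuron list, at 31.1 and 23.6, each in 11 of 11 embryos. They held fewer of the radial glia list, at 31.7 and 35.2, in 11 of 11 embryos, and fewer of the replication list, at 4.46 and 6.39, in all but 1 embryo. The 222 nuclei with a Hes1 UMI held fewer projection neuron UMIs than the other 1878, at 19.6 and 24.8, in 11 of 11 embryos, but were higher in 6 of 11 for the radial glia list (35.4 and 34.6, Hes1 left out) and in 4 of 11 for the Notch list (8.03 and 8.22, Hes1 left out). Nuclei of an embryo are not replicates, free RNA and doublets add to these counts, and their part was not tested.

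**Figure D3:**
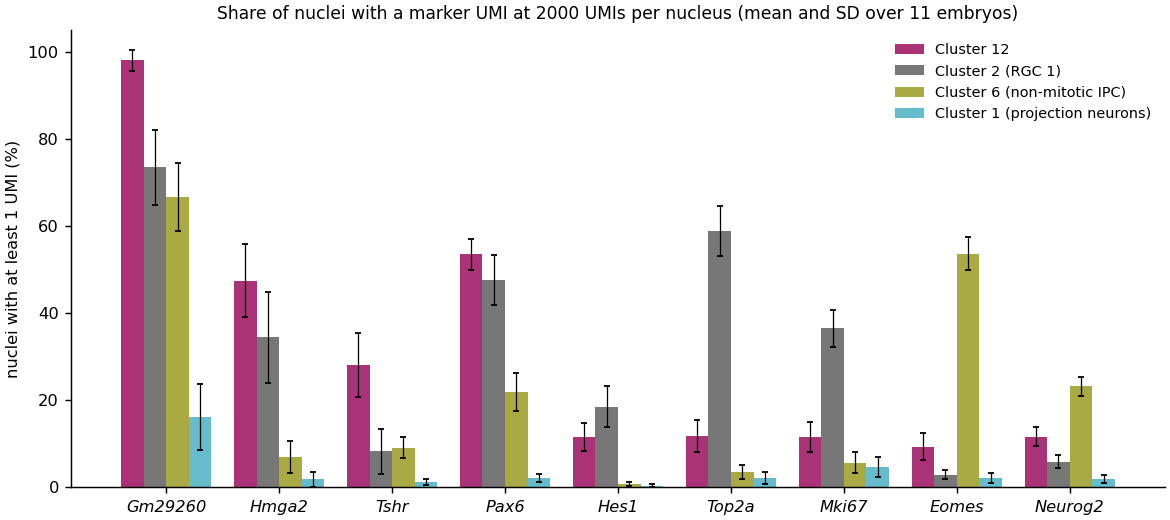
Percent of nuclei (y axis) with at least 1 UMI of each marker (x axis) in Clusters 12, 2, 6 and 1 after thinning each nucleus to 2000 UMIs, as mean and SD over embryos. Gm29260 was seen in 98.1% of Cluster 12 nuclei, Top2a in 11.8% against 58.8% in Cluster 2, and Eomes in 9.27% against 53.6% in Cluster 6.

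EtOH and saline embryos were compared in Cluster 12 with edgeR's quasi-likelihood test on the summed counts of each embryo, with Benjamini-Hochberg adjustment over the 8843 genes tested, and a gene was called at an adjusted p below 0.05 and an absolute log2 fold change above 0.32. In all, 58 genes were called (0.656% of those tested), 31 higher (0.351%) and 27 lower (0.305%) in EtOH embryos. Hes1, Mcm7, Rps26, Rpl6 and Rps2 were among those that rose, and Reln, Scn1a, Gabra2, Snap25 and Map2, all known from neurons, among those that fell. Rps26, Rpl6 and Rps2 code for ribosomal proteins, a family that no list covers and whose other members were not counted. The calls were not stable. With batch as a term, 18 genes were called, all of them among the 58, and leaving out 1 embryo in turn gave between 0 and 854 calls, 0 without S1-1, S2-1 or E2-3 (1305, 1275 and 1557 genes at an unadjusted p below 0.05) and 854 without S2-4. Embryo S2-4, the saline embryo with the depth per nucleus of the EtOH group, was the saline embryo nearest to EtOH in 48 of the 58 genes. How often it was nearest over all tested genes was not determined. Without S2-4 all 58 stayed called. That fit is no check of stability, since it takes out the saline embryo nearest to EtOH in most of these genes. It also leaves saline embryos at 5799 or more median UMIs per nucleus, against at most 4799 in EtOH embryos. With the median UMIs per nucleus as a covariate, an alternative chosen after seeing the data, 0 genes were called (474 at an unadjusted p below 0.05). In that fit all 58 kept their direction, and the log2 fold change stayed within 1.5 times its value for 41 of them and was smaller by more for 17. With batch as a term it moved by at most 6.07% for any of the 58. Depth per nucleus and treatment cannot be told apart in these embryos.

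Values of single genes below are TMM-normalised CPM in the named embryos. Hes1, the Notch target and RGC marker, stood at 54.1, 59.4, 49.1, 64.5 and 56.8 CPM in saline embryos S1-1, S1-2, S2-1, S2-2 and S2-4, and at 60.9 to 87.3 with a median of 81.8 in EtOH embryos. Of the EtOH embryos 5 were above all saline embryos and E1-1 lay among them. The log2 fold change was 0.56 (SE 0.124, adjusted p = 0.0419), and with batch as a term it was 0.54 and not called (adjusted p = 0.0604). The share of nuclei with a Hes1 UMI at 2000 UMIs was 6.64% to 13.2% with a median of 8.68% in saline and 10.9% to 15.7% with a median of 13.9% in EtOH embryos, and overlapped too. Gm29260 and Hmga2 were not called. Gm29260 was at 4599 to 9382 CPM (median 7084) in saline and 5955 to 8054 CPM (median 6588) in EtOH embryos, with a log2 fold change of 0.02 (SE 0.151, adjusted p = 0.978), and Hmga2 at 422 to 717 (median 487) and 286 to 545 (median 424), with -0.29 (SE 0.171, adjusted p = 0.409). The batches differed for Gm29260. Without TMM it was at 7201 and 8683 CPM in saline and 6462 and 6263 CPM in EtOH embryos of batch 1. In batch 2 it was at 4614 to 7169 and 6462 to 8128 CPM. Of the other genes that mark the cluster by their level, Tshr had a log2 fold change of -0.54 (SE 0.155, adjusted p = 0.106), and Thsd4, Gna14, Lpar1, Sema5a, Lrp4, Junos, Dctd and Gm44026 were not called either.

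Among the genes that rose, Adat1, which edits transfer RNA, stood at 60.7, 62.6, 57.2, 58.2 and 73.1 CPM in the saline embryos in the same order and at 83.5 to 92.7 (median 89.9) in EtOH embryos, so the groups did not overlap (log2 fold change 0.59, SE 0.112, adjusted p = 0.0297). Groups that do not overlap were found for 2.27% of all genes tested and for 10 of the 31 genes that rose. The higher share among called genes largely follows from how they were picked. Pnpla1, a lipid acyltransferase of skin, was at 15.1, 15.6, 16.2, 30.05 and 21.6 CPM in saline and 28.6 to 63.9 (median 51.4) in EtOH embryos (log2 fold change 1.36, SE 0.233, adjusted p = 0.0233), with S2-2 above the lowest EtOH embryo. Rps26, a ribosomal protein, rose from 33.0 ± 6.48 to 56.1 ± 8.52 CPM (0.84, SE 0.164, adjusted p = 0.0297), and Rpl6 and Rps2 were called as well. Mcm7, the helicase subunit, was at 49.6, 60.2, 52.5, 51.3 and 60.2 CPM in saline and 57.5 to 95.4 (median 84.2) in EtOH embryos (0.63, SE 0.136, adjusted p = 0.0413). It was the 1 called gene among 28 tested of the replication list, of which 8 had a log2 fold change above 0 and 20 below. The other genes that rose with the smallest adjusted p were Fndc9, Ift22, a protein of ciliary transport, 4930556J24Rik, Ccr9, Abhd15 and Drg1, with log2 fold changes of 0.68 to 1.49. For 26 of the 31 genes that rose, Cluster 12 was among the 5 clusters of 25 with the highest levels, as it was for 57.8% of all tested genes. With batch as a term, the log2 fold changes of Mcm7 (0.63, adjusted p = 0.0524), Rpl6 (0.60, 0.0606) and Rps2 (1.06, 0.0604) were close to those without it (0.63, 0.61 and 1.13) and no longer called.

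Cx3cr1, a chemokine receptor known from microglia, was at 7.53, 4.69, 7.51, 7.51 and 12.2 CPM in saline and 15.3 to 27.1 (median 23.2) in EtOH embryos, with no overlap (1.48, SE 0.277, adjusted p = 0.0297). Of the 12 microglia markers, C1qa and Aif1 gave 0 UMIs, 3 were tested and only Cx3cr1 was called (0.656% of all tested genes were called), with a median log2 fold change of 0.92, 2 of the 3 above 0 and 1 below. P2ry12, another receptor of microglia, was at 4.04 to 26.4 and 15.99 to 31.9 CPM (0.92, SE 0.380, adjusted p = 0.207) and was called as well without S2-4, when 9.53% of all genes were called. The summed level of the list was 38.3 to 64.7 CPM in saline and 63.0 to 92.8 CPM in EtOH embryos. The locus of Cx3cr1 overlaps Gorasp1, Csrnp1 and Xirp1 on the same strand, and the part of other cells or of overlapping genes in its rise was not tested.

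**Figure D4:**
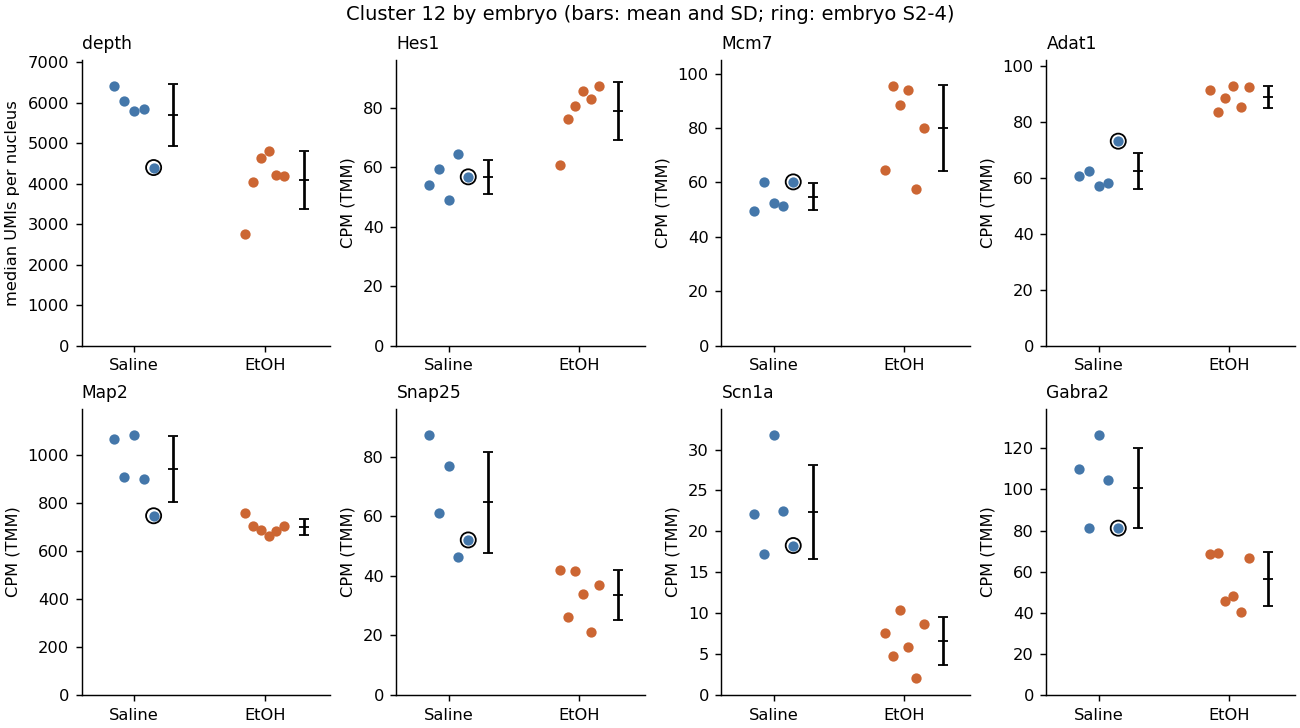
Median UMIs per Cluster 12 nucleus and TMM-normalised CPM of 7 genes (y axes, from 0) in each saline and EtOH embryo (points), with mean and SD as bars and a ring around saline embryo S2-4. S2-4 had 4400 UMIs per nucleus, within the EtOH range of 2768.5 to 4799, and was the saline embryo nearest to EtOH for Adat1, Map2 and Gabra2.

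Genes that fell were mostly genes that Cluster 12 expresses at low levels beside other clusters. For 20 of the 27, Cluster 12 was among the 5 clusters of 25 with the lowest levels, as it was for 11.2% of all tested genes. Groups did not overlap for 17 of the 27, beside 2.27% of all genes tested, which again largely follows from how called genes were picked. Reln, the secreted signal of Cajal-Retzius cells and interneurons, stood at 102, 73.5, 90.1, 123 and 36.5 CPM in the saline embryos in the same order and at 20.8 to 29.5 (median 24.3) in EtOH embryos (log2 fold change -1.68, SE 0.284, adjusted p = 0.0297). All EtOH embryos were below S2-4, which itself was far below the other saline embryos, and with the median UMIs as a covariate the log2 fold change was -0.98. Scn1a, a sodium channel of neurons, was at 22.2, 17.2, 31.8, 22.5 and 18.3 CPM against 2.13 to 10.4 (median 6.74), with -1.61 (SE 0.293, adjusted p = 0.0297). Gabra2, a GABA receptor subunit, was at 110, 81.3, 126, 104.5 and 81.2 CPM against 40.4 to 69.2 (median 57.3), with -0.79 (SE 0.155, adjusted p = 0.0297). The glycine receptor subunit Glra2 fell as well, with -1.08 (SE 0.252). In each of these the groups did not overlap, and with batch as a term Reln (-1.68, adjusted p = 0.0512) and Glra2 (-1.07, 0.0665) were no longer called.

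Other genes that fell are known from neurons in general or from cell adhesion. Snap25, a protein of synaptic vesicle fusion, was at 87.3, 61.0, 76.8, 46.3 and 52.1 CPM in saline and 21.3 to 41.9 (median 35.5) in EtOH embryos (-0.85, SE 0.187, adjusted p = 0.0419). Map2, a microtubule protein of dendrites, fell from 939 ± 138 to 699 ± 32.0 CPM (-0.35, SE 0.0823, adjusted p = 0.0488), with S2-4 below the highest EtOH embryo. Sdk1 and Pcdh7, adhesion proteins, fell from 133 ± 35.3 to 72.8 ± 8.02 CPM (-0.78, SE 0.152, adjusted p = 0.0297) and from 387 ± 91.4 to 190 ± 38.7 CPM (-0.94, SE 0.174, adjusted p = 0.0419). Sox11, a transcription factor of newborn neurons, fell from 315 ± 83.7 to 168 ± 15.6 CPM (-0.84, SE 0.168, adjusted p = 0.0488), and Nbea and Pclo, which act in synapse assembly, were called too. Gm38393, Ube2d1, a ubiquitin-conjugating enzyme, Gm20754, Shisa6, 5730522E02Rik and Ivns1abp completed the 10 with the smallest adjusted p, with log2 fold changes of -1.48 to -0.46, and reads of Gm38393 cannot be told apart from those of Snrpn and Snurf, which it overlaps on the same strand. With batch as a term, Snap25, Map2, Pcdh7, Sox11, Nbea, Pclo, 5730522E02Rik and Ivns1abp were no longer called (adjusted p of up to 0.0728).

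The summed levels of neuron lists overlapped between the groups. The interneuron list summed to 3279 to 4438 CPM in saline and 3462 to 3765 CPM in EtOH embryos, with Gad2 in the nuclei at 2000 UMIs in 8.26% to 18.8% and 3.21% to 8.28%, beside 5.29% in Cluster 1, which should lack it. Neurod2, a transcription factor of projection neurons, was seen in 1.38% to 5.21% and 1.08% to 6.59%. Reln was found in 6.94% to 25% of nuclei in saline and 4.30% to 6.59% in EtOH embryos, with a mean of 9.98% beside 19.6% in Cluster 1, so that its UMIs cannot be read as expression by Cluster 12 nuclei. The synapse and neurite list summed to 18822 to 26537 and 16442 to 20785 CPM, and the projection neuron list to 10590 to 15304 and 11338 to 14522 CPM. The part of free or misassigned RNA of neurons in these falls was not tested.

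The lists held few calls, as did all tested genes, of which 0.656% were called and 18.5% had an unadjusted p below 0.05. Counts of 0 or 1 in lists of this size are near that background. DESeq2 called 2.57% of all tested genes, and edgeR without S2-4 called 9.53%. Counted once each, the 339 tested genes of all lists held 5 calls by edgeR (1.47%), 15 by DESeq2 (4.42%) and 37 without S2-4 (10.9%), of which 13 were higher and 24 lower. Of 28 genes tested of the radial glia list, 1 rose (Hes1) and 0 fell, with 4 higher and 3 lower at an unadjusted p below 0.05 and a median log2 fold change of 0.03, beside 0.01 over all tested genes. Sox2 (-0.50, SE 0.161, adjusted p = 0.112), Sox9 (-0.55, SE 0.179, adjusted p = 0.116) and Pax6 (0.18, SE 0.0783, adjusted p = 0.209) were not called, though Sox2 and Sox9 were without S2-4, when 9.53% of all genes were called. Nuclei with a Sox2 UMI at 2000 UMIs made up 9.72% to 13.8% in saline and 3.85% to 10.8% in EtOH embryos, beside 0.850% in Cluster 1. Hes1 was also the 1 call among 18 Notch genes, with Notch2 at 0.36 (SE 0.117, adjusted p = 0.120) and Hes5 at 0.33 (SE 0.168, adjusted p = 0.291). Of 32 Wnt genes, 9 Hedgehog genes, 11 BMP genes and 8 FGF genes tested, 0 were called by edgeR or DESeq2, with 3, 1, 2 and 2 at an unadjusted p below 0.05, and Fgfr2, an FGF receptor, came nearest (0.32, SE 0.0881, adjusted p = 0.0851). In the lists of cortical patterning (20 tested), IPC (15), G1 regulators (16), Hippo (13), late gliogenic (7) and basal radial glia genes (6), 0 were called by either tool, with 4, 4, 1, 3, 0 and 0 at an unadjusted p below 0.05. Early stem cell (9), apical polarity (20), interneuron (7) and cortical hem genes (3) held 0 calls by edgeR and 1 each by DESeq2, namely Nr6a1, Ctnna2, Nxph1 and Trpm3, with 2, 3, 2 and 1 at an unadjusted p below 0.05. Their median log2 fold changes were -0.08, -0.11, -0.49 and -0.90, with 7, 13, 6 and 3 genes below 0. Of all tested genes 52.1% were above 0. The lists of endothelium, meninges, oligodendrocytes and astrocytes, and erythrocytes had between 1 and 3 genes tested, 0 called by either tool and 0 at an unadjusted p below 0.05.

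Of the 23 mitosis genes tested, 0 were called by edgeR and 1 by DESeq2 (Mki67), 10 had an unadjusted p below 0.05 and were lower in EtOH embryos (8.44% of all tested genes, with a further 10.1% higher and 18.5% in all), and the median log2 fold change was -0.37. The sum of all 30 genes of the list was 1097 to 1312 CPM in saline and 717 to 1369 CPM in EtOH embryos, with the overlap due to E1-1. Mki67 was at 73.1 to 115 CPM (median 82.0) and 43.1 to 65.0 CPM (median 60.2), with -0.57 (SE 0.147, adjusted p = 0.0615), and Top2a at 84.2 to 131 and 59.6 to 141 CPM, with -0.10 (SE 0.203, adjusted p = 0.847). The replication list had a median of -0.11, with 1 gene (Mcm7) higher and 4 lower at an unadjusted p below 0.05. In the synapse and neurite list 0 of 30 were called by edgeR and 4 by DESeq2, all lower and among them Robo1, Robo2 and Dcc, and 10 had an unadjusted p below 0.05, all lower, with a median of -0.40. In the projection neuron list 2 of 17 fell (Map2 and Snap25), with 7 lower and 0 higher at an unadjusted p below 0.05 and a median of -0.31. DESeq2 also called Dcx, which was called without S2-4 too, when 9.53% of all genes were called. The lists of p53 targets and apoptosis (15 tested), stress response (11) and alcohol and retinoid metabolism (7) held 0 calls by edgeR or DESeq2, with 3, 0 and 1 genes at an unadjusted p below 0.05 and medians of -0.01, 0.04 and -0.11.

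To ask whether the EtOH effect in Cluster 12 differed from that in similar clusters, the effects were compared between clusters within embryos. Of the 58 genes called in Cluster 12, 8 were also called in Cluster 2, which comes from the same embryos and libraries, where 85 of 11837 genes (0.718%) were called in all. All 31 genes that rose and all 27 that fell in Cluster 12 changed in the same direction in Cluster 2. The share of all tested genes that did so was not determined. In the test of the difference itself, 0 of 11416 genes (0%) were called between Cluster 12 and Cluster 2 by edgeR and 0 by limma, with 483 and 524 genes at an unadjusted p below 0.05. Nearest was Pcdh7, with a difference in log2 fold change of -0.64 (SE 0.111, adjusted p = 0.0822). It was -0.94 in Cluster 12 and -0.30 in Cluster 2. For Hes1 the difference was 0.05 (SE 0.130, adjusted p = 1.00), with 0.56 in Cluster 12 and 0.48 in Cluster 2.

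Against Cluster 6, the other progenitor cluster low in mitosis genes, 6 of 11015 genes (0.0545%) differed in their EtOH effect by edgeR. Nim1k, a protein kinase, was at 34.6 to 87.9 CPM in saline and 66.6 to 121 CPM in EtOH embryos in Cluster 12. Its own effect was called neither there (log2 fold change 0.49, SE 0.275, adjusted p = 0.374) nor in Cluster 6 (-1.17, SE 0.271, adjusted p = 0.0609). The difference was 1.63 (SE 0.243, adjusted p = 0.00230). Reln counts fell by more in Cluster 12, with a difference of -1.08 (SE 0.178, adjusted p = 0.00731), although its UMIs there were no more frequent than in Cluster 1, and so did Scn1a counts, with -1.58 (SE 0.291, adjusted p = 0.0198). Sema6d, a guidance molecule, and Pbx3, a homeobox factor, differed by -0.70 (SE 0.126, adjusted p = 0.0198) and -0.62 (SE 0.113, adjusted p = 0.0267), and Grm8, a glutamate receptor, by 1.16 (SE 0.212, adjusted p = 0.0267). The EtOH effects of Sema6d, Pbx3 and Grm8 themselves were called in neither cluster (edgeR, adjusted p of 0.0697 or more). With 1 embryo left out in turn, Nim1k was called in 11 of 11 fits, Reln in 10, Sema6d in 6, Scn1a in 4, Pbx3 in 3 and Grm8 in 2, and limma on within-embryo differences called 0 of the 11015 genes (550 at an unadjusted p below 0.05).

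**Figure D5:**
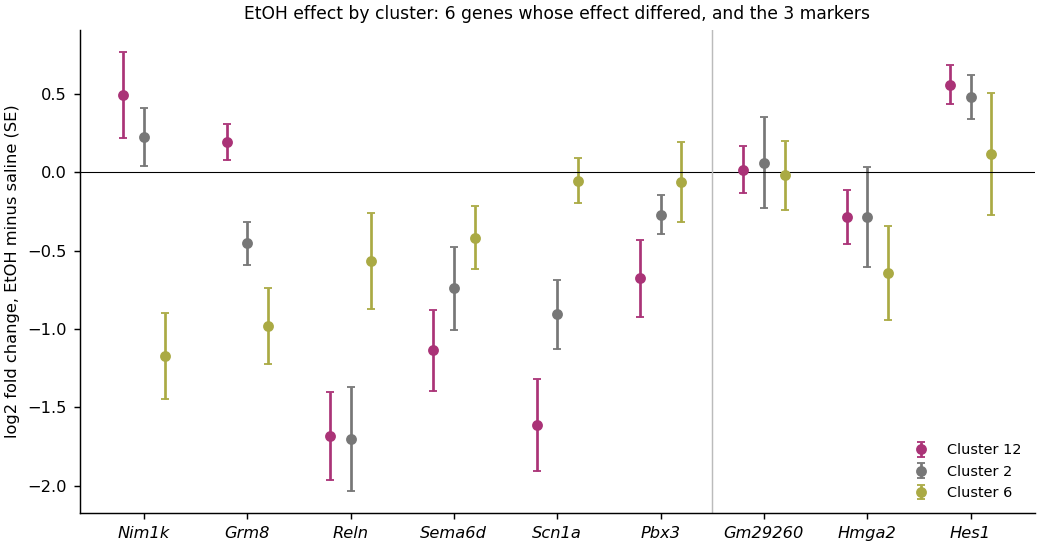
Log2 fold change of EtOH against saline (y axis, points with SE bars) in Clusters 12, 2 and 6 for the 6 genes whose EtOH effect differed between Clusters 12 and 6 by edgeR and for the 3 marker genes (x axis). Nim1k was at 0.49 in Cluster 12 and -1.17 in Cluster 6, and Reln at -1.68 and -0.56, while Gm29260 lay near 0 in all 3 clusters.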

How the data were processed

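Per the labels, nuclei of each cortex were sequenced as 1 library per embryo. The authors aligned the reads to mm10 with Cell Ranger (version and strand setting not given in the sources used here), filtered nuclei and genes, clustered the nuclei with Seurat and deposited raw UMI counts, 1 table of 23513 genes for each embryo and cluster. Saline embryo S2-3 was not used here. The study itself removed 1 saline sample, which it does not name, for an unlike spread of its cells over the clusters. Counts were checked to be whole numbers. The cluster, its markers and the 28 gene lists were chosen with earlier results of these data known.

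Counts of the Cluster 12 nuclei were summed per embryo in Python 3.11.15 (pandas 2.3.3, NumPy 2.4.6 and SciPy 1.17.1). Expression was tested with edgeR 4.0.16 in R 4.3.3 (TMM, filterByExpr, glmQLFit with the robust option, glmQLFTest, treatment only), and differences of effects between clusters with the embryo as a block. Fits and tests were tested on simulated data. Alternatives were limma 3.58.1 (voom and duplicateCorrelation by dam, or a prior count of 2 for within-embryo differences) and DESeq2 1.42.0, with other filters, thinning of the sums to 398708 UMIs, removal of deep or mitosis-positive nuclei, single batches, sums per dam and each embryo left out in turn. Per-embryo measures were compared by two-sided exact permutation tests. p-values take littermates as independent. Batch was given by the labels and pairs treatments. Deviations from group means had a mean correlation of 0.01 between embryos of the same batch and other treatment (16 pairs) and of -0.01 between batches (14 pairs).

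SDs between embryos include counting error, and the smallest sum of 398708 UMIs limits low genes most. Embryos of a dam differed by more than sampling noise, with a mean chi-square per gene of 1.62 to 6.54. Doublets were not called here. Genes were matched by symbol to GENCODE vM21 on GRCm38, where 414 of 416 genes looked up had 1 match. Of the 58 called genes, 23 overlap another gene on the same strand and 39 one on the opposite strand, so their counts may hold reads of these genes. Named are the 3 markers, up to 10 called genes per direction with the smallest adjusted p, the highest and the called members of each list, the 10 genes with the largest ratio to the next cluster, up to 5 genes per direction in each test of a difference, and Egfr. Further called genes and members of lists with no call were named after their values were seen. Some genes that this rule takes are not reported here.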

Additional observations from a re-analysis of the deposited data

Results flagged for a closer look

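Of 60 sets of embryo values checked for a sample far from the rest of its group, 6 held one, where chance gives about 1 in 20. Saline embryo S2-2 had 5.18% of its nuclei in Cluster 12, with 4.35% in the next saline embryo. Saline embryo S2-4 had a median of 2288 genes per Cluster 12 nucleus, with 2690 in the next, and EtOH embryo E1-1 had 1641.5, with 2163.5 in the next. S2-4 also stood apart in the saline group with 227 CPM of Drg1 (152 in the next) and 141 CPM of Ivns1abp (211 in the next), in both cases toward the EtOH embryos, and EtOH embryo E2-1 stood apart with 85.9 CPM of Ube2d1 (66.4 in the next).

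The EtOH effect differed between Clusters 12 and 6 for 6 genes by edgeR's test of the difference with Benjamini-Hochberg adjustment. In log2 fold change, Nim1k differed by 1.63, Grm8 by 1.16, Reln by -1.08, Sema6d by -0.70, Scn1a by -1.58 and Pbx3 by -0.62. Their raw levels in Cluster 12 were 62.8 and 90.3 CPM (saline and EtOH means) for Nim1k, 91.1 and 109 CPM for Grm8, 81.4 and 25.8 CPM for Reln, 217 and 102 CPM for Sema6d, 21.4 and 6.77 CPM for Scn1a, and 424 and 270 CPM for Pbx3. In Cluster 6 they were 13.1 and 6.06 CPM, 48.9 and 25.9 CPM, 193 and 136 CPM, 259 and 203 CPM, 40.9 and 40.9 CPM, and 557 and 557 CPM in the same order of genes.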

How the results depend on the processing

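The count of 58 called genes became 227 with DESeq2, 675 with no filter on low counts, 18 with batch as the replicate block, 353 with counts summed per dam (50 of the 58 among them), 336 with limma-voom and the dam as a random block (254 higher and 82 lower), 306 without nuclei in the top 5% of UMIs, 320 in batch 1 only and 0 in batch 2 only (910 at an unadjusted p below 0.05), and it was 0 to 854 with 1 embryo left out. With the median UMIs per nucleus as a covariate, chosen after seeing the data, it was 0 (474 at an unadjusted p below 0.05). The share of calls that were higher, 53.4% at first, was 66.04% with sums thinned to equal totals (53 calls, 19 of them among the 58), 35.3% without the top 5% of nuclei, 39.7% with no filter and 17.1% among the 41 calls without nuclei with 2 or more mitosis UMIs, a setting that removed 73.5% to 91.7% of the nuclei of a saline and 52% to 69.4% of those of an EtOH embryo and left 4446 genes tested, and shared 3 calls with the 58. The causes of the other changes were not tested. Of the named genes, Gm29260, which was near 0 and not called with all embryos, was at -0.40 in batch 1 only (edgeR, adjusted p = 0.0262), with 2 embryos per group.

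Between Clusters 12 and 2, the 0 differences of EtOH effects became 13 with no filter on low counts and 0 to 3 with 1 embryo left out, and the 6 between Clusters 12 and 6 became 0 with limma (550 at an unadjusted p below 0.05), 30 with no filter and 1 to 13. Without thinning, the share of Cluster 12 nuclei with a UMI was 16.3% for Eomes, 25.1% for Hes1, 65.9% for Hmga2, 25.3% for Mki67, 20.8% for Top2a and 41.3% for Tshr. Leaving out 1 embryo moved the difference of EtOH minus saline to -0.590 to -0.188 percentage points for the share of all nuclei, 1.79 to 3.30 for that of RGC nuclei, -1923 to -1331 median UMIs and -576 to -379 median genes per nucleus, 0.0117 to 0.0269 for median UMIs over those of Cluster 2, -0.0348 to -0.0234 for those over all nuclei, and -0.0619 to 0.0817 nuclei per Cluster 2 nucleus. The block changed no call among these.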
